A study of Homo sapiens
Mus musculus with 17 samples.

Results

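Crabp1, Twist2 and Ier3 are 3 mouse genes read from the host cells of human bladder cancer xenografts, taken from 23337 rows of the mouse expression table, of which 11831 passed the filter on low values, these 3 included. They were chosen by name because they stood among the largest host increases under combined treatment with alpelisib and nintedanib, so their values in that contrast are a description and carry no test. The xenografted cells were VM-CUB-1, 1 established line of human bladder cancer, and the hosts were mice of the strain Hsd:Athymic Nude-Foxn1nu, which lack a normal thymus and its T cells. RNA was sequenced from 17 libraries after 7 days of treatment. Vehicle (0.5% methylcellulose with 0.1% Tween80) was given in 4, alpelisib alone at 25 mg/kg in 4, nintedanib alone at 40 mg/kg in 5, and both drugs at these doses in 4. The sample titles divide the nintedanib libraries into 3 from responders and 2 from non-responders, without giving the criterion. The series text gives other numbers for this division, and the titles were followed. Alpelisib inhibits the alpha isoform of the kinase PI3K, and nintedanib inhibits the receptor tyrosine kinases of VEGF, FGF and PDGF. The labels do not say that each library came from a separate mouse, so every p-value below measures the spread between libraries, which may be partly technical.

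Crabp1 encodes a cytosolic protein that binds retinoic acid, the vitamin A derivative that acts through nuclear receptors, and limits how much of it reaches them. In adult skin the gene is known from dermal papilla and other dermal fibroblasts. Twist2, also called Dermo1, is a basic helix-loop-helix transcription factor of mesenchymal and dermal cells that pairs with E-proteins. Ier3 is an immediate early gene, switched on quickly by growth factors, cytokines and stress, whose product affects survival signalling. The human genome carries a gene of the same name for each, so human reads could be set beside mouse reads in the same libraries.

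Depth differed between the species, with 2271764 to 7438823 mouse reads and 7429753 to 25654879 human reads per library. Rn45s, the 45S pre-ribosomal RNA, and Lars2, a mitochondrial leucyl-tRNA synthetase gene, together took from 1.73% to 72.9% of mouse reads. Their share was above 40% in 4 libraries, namely vehicle 3, combination 1, combination 4 and alpelisib 3. The mouse reads carried fibroblast markers, with no gene of a 20-gene fibroblast list at 0 throughout any group. The same held for the dermal papilla, pericyte, endothelial, macrophage, neutrophil, adipocyte, skeletal muscle and Schwann cell lists used below. It is therefore not particular to fibroblasts. In bulk tumours, fewer cells of a type and less RNA per cell cannot be told apart, which holds for every level below.

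Crabp1 was the best covered of the 3, with 97 to 2862 mouse reads per library. Its normalized counts, which are reads divided by a library size factor, were 289, 288, 223 and 311 in vehicle libraries 1 to 4. Under alpelisib they were 1004, 684, 692 and 736. All alpelisib libraries lay above all vehicle libraries, which 4.18% of tested genes also showed. Nintedanib non-responders had 448 and 538, and responders had 1939, 809 and 522. Under the combination the values were 1118, 1129, 1262 and 1658, all of them above each vehicle and each alpelisib library. The first of these orderings held for 4.89% of tested genes and the second for 1.62%. All 13 drug-treated libraries exceeded the highest vehicle library, a pattern seen in 0.144% of tested genes. Each of these orderings uses vehicle or combination libraries, by which Crabp1 was chosen, so the shares are a description and no test.

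Group means of Crabp1 were 278 ± 38.0 in vehicle (SD, n = 4), 493 ± 63.9 in nintedanib non-responders (n = 2), 779 ± 152 under alpelisib (n = 4), 1090.2 ± 749 in responders (n = 3) and 1292 ± 253 under the combination (n = 4). Vehicle and non-responder libraries did not overlap, nor did non-responder and alpelisib libraries. Alpelisib overlapped with responders, and responders with the combination. The wide SD of responders came with library 1, which held the highest Crabp1 level of all 17.

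Twist2 was far less covered, with 15 to 259 mouse reads per library, so its values carry more counting error. Normalized counts were 20.7, 23.5, 62.0 and 58.8 in the vehicle libraries, which formed a low pair and a higher pair. Under alpelisib they were 94.9, 91.8, 106 and 83.4, again all above vehicle. Non-responders had 40.8 and 75.0, and responders had 175, 143 and 56.1. The combination libraries lay close together at 129, 129.7, 128 and 147, above every vehicle and alpelisib library. In all, 11 of 13 treated libraries exceeded the highest vehicle library, the exceptions being non-responder 1 and responder 3.

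Mean Twist2 was 41.2 ± 22.2 in vehicle (SD, n = 4), 57.9 ± 24.2 in non-responders (n = 2), 94.1 ± 9.42 under alpelisib (n = 4), 125 ± 61.7 in responders (n = 3) and 133 ± 9.10 under the combination (n = 4). Of neighbours in this order, only non-responders and alpelisib did not overlap.

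Ier3 was covered by 26 to 755 mouse reads per library. Its normalized counts were 131, 102, 59.7 and 114 in vehicle and 257, 197, 160.4 and 178 under alpelisib, with no overlap between these groups. Non-responders had 101 and 159.6, whereas responders had 511, 317 and 126. The combination gave 321, 292, 419 and 350.3, once more above all vehicle and all alpelisib libraries. The 2 treated libraries that did not exceed the highest vehicle library were the same as for Twist2, non-responder 1 and responder 3.

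Mean Ier3 was 102 ± 30.4 in vehicle (SD, n = 4), 131 ± 41.1 in non-responders (n = 2), 198 ± 41.9 under alpelisib (n = 4), 318 ± 193 in responders (n = 3) and 345 ± 54.8 under the combination (n = 4). The order of group means was thus the same for the 3 genes, from vehicle through non-responders, alpelisib and responders to the combination. As with Twist2, the ranges of non-responders and alpelisib were the only neighbouring ranges without overlap. Nintedanib responder 1 was the highest of the 17 libraries for each of the 3 genes, as it was for 6.2% of tested genes.

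**Figure D1:**
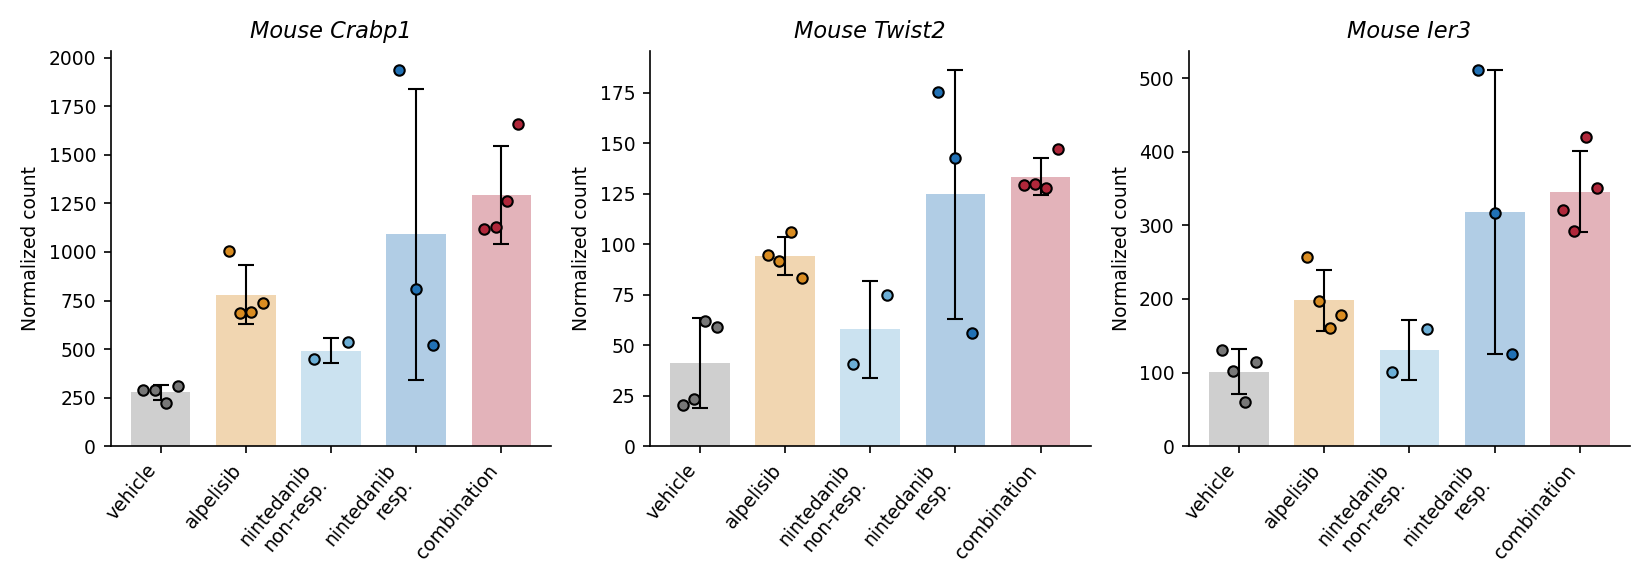
Normalized counts (y axis, linear) of mouse Crabp1, Twist2 and Ier3 in the 5 groups; points are libraries, bars are group means and error bars are SD. The 4 combination libraries lie above all 4 vehicle and all 4 alpelisib libraries in each panel, and the 3 responder libraries spread from 522 to 1939 for Crabp1.

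Against vehicle, Crabp1 was higher by 2.21 ± 0.30 (SE) on the log2(normalized count + 1) scale under the combination, or 4.61-fold. Twist2 was higher by 1.84 ± 0.37, or 3.57-fold, and Ier3 by 1.80 ± 0.34, or 3.48-fold. These are the differences that led to the choice of the genes. By size of this change they ranked 29, 62 and 67 among the 11831 genes fitted with limma, which describes the choice and tests nothing. Over all genes, 47 were called higher (0.397%). That count rested on single libraries, being 1 without combination 4 and 18 without the 4 libraries rich in Rn45s and Lars2. Crabp1 stood between Mt2 (2.23) and Mmp3 (2.20), Twist2 directly below Neurl2 (1.86), and Ier3 between Tnfrsf9 (1.82) and Lcn2 (1.79).

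Each drug alone was accompanied by a smaller difference from the same vehicle libraries. With alpelisib the log2 difference was 1.48 ± 0.30 (SE) for Crabp1, 1.33 ± 0.37 for Twist2 and 0.99 ± 0.34 for Ier3. With nintedanib, all 5 libraries weighted equally, it was 1.39 ± 0.28, 1.19 ± 0.35 and 1.04 ± 0.33 in the same order. Crabp1 was the member whose 5 nintedanib libraries all lay above vehicle, an ordering found in 0.93% of tested genes. It too uses the vehicle libraries by which Crabp1 was chosen.

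The combination exceeded alpelisib by 0.73 ± 0.30 (SE, log2) for Crabp1, 0.50 ± 0.37 for Twist2 and 0.81 ± 0.34 for Ier3. It exceeded nintedanib by 0.82 ± 0.28, 0.65 ± 0.35 and 0.76 ± 0.33. The sum of the single-drug differences was larger than the combination difference for each gene, with departures from additivity on the log2 scale of -0.66 ± 0.41 for Crabp1, -0.68 ± 0.51 for Twist2 and -0.23 ± 0.47 for Ier3. These contrasts contain the combination libraries by which the genes were chosen and were not tested. Leaving out single libraries moved the departure from -0.83 to -0.31 for Crabp1, from -0.94 to -0.42 for Twist2 and from -0.47 to 0.11 for Ier3. The upper ends for Crabp1 and Ier3 were without nintedanib responder 1, and that for Twist2 was without vehicle 1. Without vehicle 3 the Ier3 departure was 0.01.

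**Figure D2:**
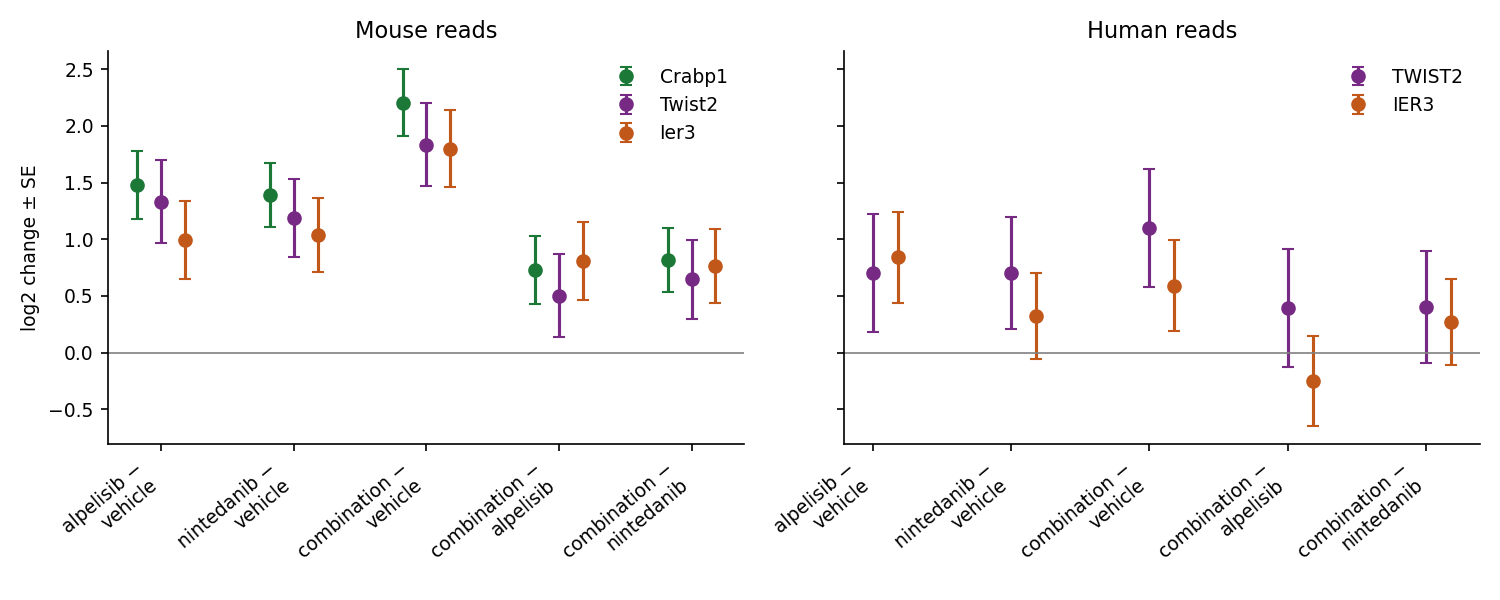
Differences between groups on the log2(normalized count + 1) scale (y axis, with SE) for the mouse genes (left) and the human genes of the same names (right), in 5 comparisons. The largest mouse differences are those of the combination against vehicle, 1.80 to 2.21, while human TWIST2 and IER3 differ by 1.10 and 0.59 in that comparison. Human IER3 differs more between alpelisib and vehicle. Human CRABP1 was below the filter on low values.

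The comparison of the 2 single drugs sets group means against each other that hold no combination or vehicle library, although the spread was estimated over all groups. Crabp1 differed by 0.09 ± 0.28 (SE, log2, alpelisib minus nintedanib; 95% interval -0.51 to 0.69). The difference was 0.14 ± 0.35 for Twist2 (-0.59 to 0.88) and -0.05 ± 0.33 for Ier3 (-0.73 to 0.64). No member was called different, with an adjusted p of 0.9998 each in limma, against 0.0338% of all genes called. The intervals allow differences of up to about the size of the gap between the combination and either drug, so similar action is not shown. The sign depended on which library was left out for all 3 genes.

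Responders were also compared with non-responders among the nintedanib libraries, by the sample titles, with which the series text disagrees. The log2 difference was 0.93 ± 0.39 (SE) for Crabp1 (95% interval 0.12 to 1.74), 1.01 ± 0.47 for Twist2 (0.01 to 2.00) and 1.10 ± 0.44 for Ier3 (0.17 to 2.03). The unadjusted p-values from limma were 0.0271, 0.0479 and 0.0235, and all 3 adjusted p-values were 1, so none passed. Over all genes the call rate was 0%, with 242 genes at an unadjusted p under 0.05, 0 called by edgeR, 1 by limma-voom and 2 by DESeq2. For each gene responder 3 lay below non-responder 2, so the ranges overlapped, whereas in 7.65% of tested genes all responders lay above both non-responders. Leaving out single libraries moved the differences from 0.40 to 1.35 for Crabp1, from 0.58 to 1.5 for Twist2 and from 0.64 to 1.65 for Ier3. The lowest were without responder 1 for Crabp1 and Ier3 and without non-responder 1 for Twist2, and the highest were without responder 3.

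Markers of other cell types in the same libraries moved unevenly. The 2 non-responder libraries had summed adipocyte markers of 3196 and 3488 normalized counts, against 240.5 to 716 in responders. Summed skeletal muscle markers were 36699 in non-responder 1 and 793 in non-responder 2, above and below the 1040 to 1455 of responders. The part of such tissue in the lower Crabp1, Twist2 and Ier3 of non-responders was not tested.

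Human CRABP1 was nearly absent from the tumour reads. It was covered by 0 to 35 human reads per library and 153 in all, against 14797 mouse reads for Crabp1. There were 49.4 to 681 mouse reads for each human read in the 16 libraries with any. Vehicle 3 had 0 human reads of 7429753, which allows a count of up to 3 reads, or 6.02 normalized counts. Its human normalized counts averaged 1.76 ± 1.83 in vehicle (SD, n = 4), 7.15 ± 2.75 under alpelisib (n = 4), 8.49 ± 8.94 in non-responders (n = 2), 17.1 ± 15.7 in responders (n = 3) and 11.6 ± 7.88 under the combination (n = 4). With a mean of 8.85 over the 17 libraries it fell under the minimum of 10 and was not tested.

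Human TWIST2 was low as well, with 1.95 to 5.50 mouse reads for each human read and more mouse than human reads in 17 of 17 libraries. Its mean was 15.1 ± 6.57 normalized counts in vehicle (SD, n = 4) and 32.8 ± 9.99 under the combination (n = 4). The log2 difference was 1.10 ± 0.52 (SE; 95% interval 0.01 to 2.19) and did not pass, with an limma adjusted p of 0.273. Of 14533 human genes tested, 0.317% were called higher in this comparison.

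Human IER3 showed the opposite balance, with 4.18 to 25.5 human reads for each mouse read and more human reads in 17 of 17 libraries. It averaged 1981 ± 597 normalized counts in vehicle (SD, n = 4), 3457 ± 530.0 under alpelisib (n = 4), 2221 ± 928 in non-responders (n = 2), 3374 ± 3049 in responders (n = 3) and 3031 ± 1120.4 under the combination (n = 4). The combination differed from vehicle by 0.59 ± 0.40 (SE, log2; 95% interval -0.25 to 1.43; limma adjusted p = 0.439). Alpelisib differed from vehicle by 0.84 ± 0.40 (limma adjusted p = 0.268). Neither passed. For none of the 3 human genes did all combination libraries lie above all vehicle libraries, as they did for 5.27% of human genes tested. Human IER3 was highest on average under alpelisib and mouse Ier3 under the combination, although the human ranges of neighbouring groups all overlapped. The alpelisib range of human IER3, 2787 to 4018, lay above that of vehicle, 1328 to 2559. Human CRABP1 was likewise at 4.86 to 11.1 under alpelisib and 0 to 4.10 in vehicle, while these ranges overlapped for TWIST2.

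The ratio of mouse to human reads also varied between groups. For Ier3 it ran from 0.0393 to 0.0693 mouse reads per human read in vehicle and from 0.0402 to 0.0603 under alpelisib. It ran from 0.0516 to 0.203 under the combination, from 0.086 to 0.239 in responders and from 0.0567 to 0.0755 in non-responders. Vehicle and responder ranges did not overlap, while vehicle and combination ranges did. For scale, 14 keratinocyte and urothelial genes, all with more human than mouse reads, had ratios of 0.000656 to 0.311 with a median of 0.0375. Fibroblast genes had a median ratio of 12.2, and 3 of 19 had more human reads. The pooled ratio was 0.0817 for Ier3, 3.75 for Twist2 and 96.7 for Crabp1. Ier3 therefore lay within the range of the epithelial list, and the part of human reads in its mouse level was not tested.

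Mouse and human levels were correlated across the 17 libraries on the log2 scale, in a family of 3 relations. With group differences included, Pearson's r was 0.789 for Crabp1, 0.839 for Twist2 and 0.636 for Ier3, and Spearman's rho was 0.752, 0.850 and 0.605. These values contain the treatment differences for which the genes were chosen and are a description. With the 5 group means removed and labels permuted within groups, r was 0.831 for Twist2 (adjusted permutation p = 0.00177), rho was 0.850 (0.00279) and r was 0.764 without nintedanib responder 3 and non-responder 1 (0.0103), the libraries farthest from the median. For Crabp1, r was 0.632 (adjusted permutation p = 0.0413) and rho 0.564 (0.0601), and r was 0.415 without responders 1 and 3 (0.241). For Ier3, r was 0.723 (adjusted permutation p = 0.0553) and rho 0.613 (0.0601), and r was 0.386 without responders 1 and 3 (0.242). Libraries with more mouse Twist2 than their group mean thus also had more human TWIST2, while the relation for Crabp1 no longer passed without those responder libraries and that for Ier3 did not pass. The Spearman values and omissions with group means removed were added after seeing the data.

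**Figure D3:**
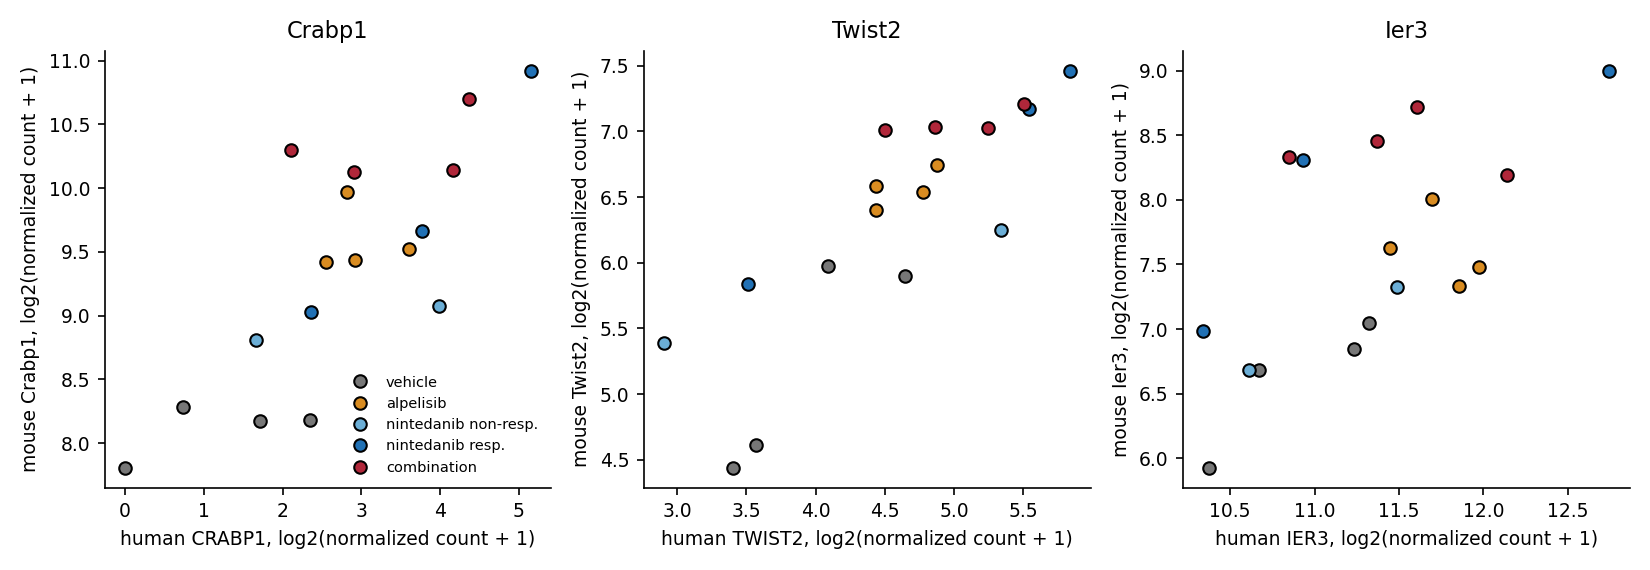
Mouse against human level of each gene, both as log2(normalized count + 1), with 1 point per library coloured by group. Crabp1 and Twist2 rise with their human counterparts over the 17 libraries (r = 0.789 and 0.839), and Ier3 less closely (r = 0.636).

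The 3 genes were then compared with each other after removing group means, so that mean differences between groups did not enter. Differences in response between libraries of the same group remained. This comparison was chosen after seeing the data. Crabp1 and Ier3 deviated together, with a Pearson's r of 0.857 (adjusted permutation p = 0.00894 over 3 relations, permuting within groups), a Spearman's rho of 0.770 (0.00675) and r of 0.646 without responders 1 and 3 (0.0329). Crabp1 and Twist2 gave r = 0.450 (adjusted permutation p = 0.431) and rho = 0.203, and r was -0.08 without responders 1 and 3. Twist2 and Ier3 gave r = 0.343 (adjusted permutation p = 0.431) and rho = 0.206, with r = 0.347 without vehicle 3 and responder 3. Vehicle 3 shows the difference, being the lowest vehicle library for Crabp1 and Ier3 and the highest for Twist2. That library also held the largest share of Rn45s and Lars2 reads.

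**Figure D4:**
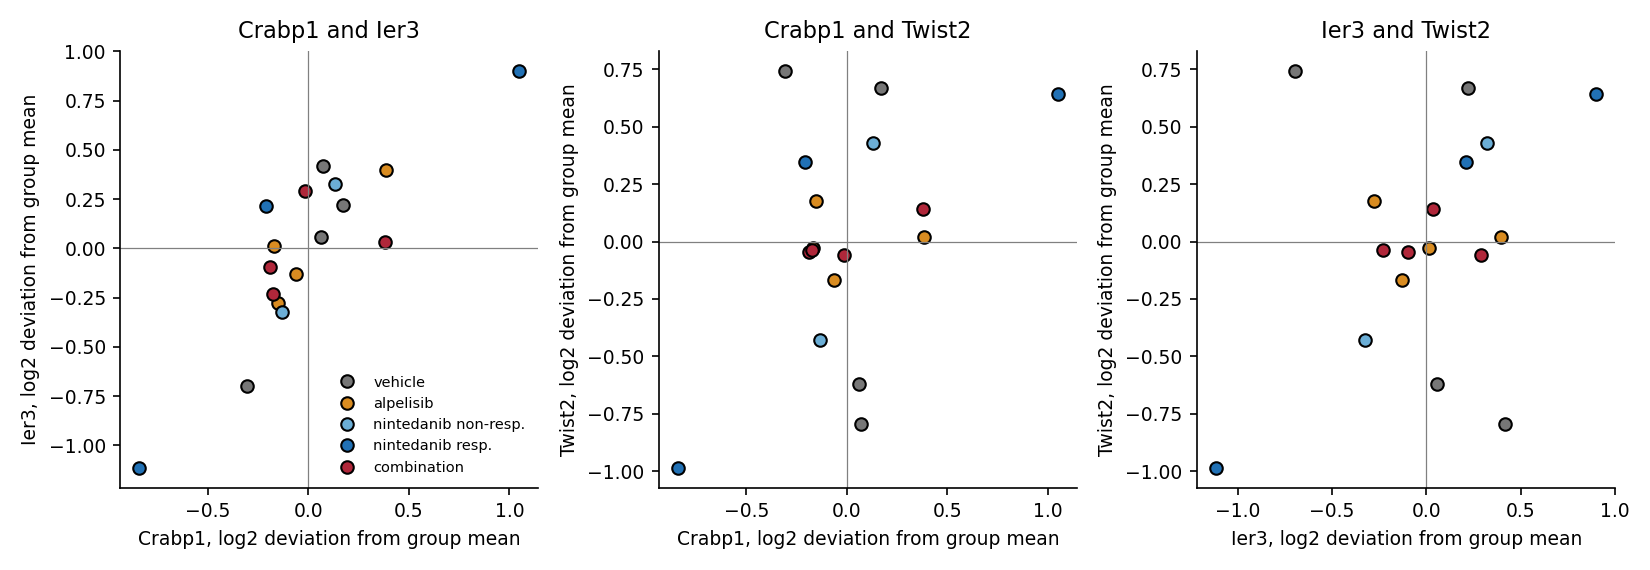
Deviations of each library from its group mean on the log2 scale, for each pair of the 3 genes, with 1 point per library coloured by group. Crabp1 and Ier3 lie along a diagonal (r = 0.857), whereas the vehicle libraries spread widely in Twist2 at little change in Crabp1 (r = 0.450).

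Over all 17 libraries, group differences included, the mouse genes whose levels ran most like Crabp1 were Ier3 (Pearson's r = 0.944), Prdx6 (0.938), a peroxiredoxin, Grhpr (0.904), a glyoxylate reductase, Fam162a (0.897) and Mif (0.894), a cytokine. For comparison, the median r with Crabp1 was -0.03 over all tested genes and the 99th percentile 0.73. Among the 5 nearest to Twist2 were Irx1 (0.900), a homeobox factor, Gna14 (0.873), a G protein subunit, Bpgm (0.872), bisphosphoglycerate mutase, and Adm (0.869), the precursor of the vasodilator adrenomedullin. By likeness to Twist2, Crabp1 ranked 10 of all tested genes, with r = 0.852, and Ier3 ranked 30, with r = 0.784. Nearest to Ier3 were Crabp1 (0.944), Ndufa4l2 (0.925), a mitochondrial protein, Mif (0.904), Prdx6 (0.886) and Ndrg1 (0.875). Of the 13 distinct genes among the 5 nearest to each member, 8 had more human than mouse reads, among them Prdx6 (100689 human and 14376 mouse reads) and Ndrg1 (892329 and 13407). Human MIF is listed at 0. All these values share libraries, depth and treatment groups and are given as a description.

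Other genes of retinoid handling were mostly closer to their vehicle level than Crabp1, which was chosen for its large difference, and none passed. Of 28 listed carriers, enzymes, receptors and targets, 20 were tested against vehicle under the combination and limma called 0 (0 of 20 in either direction; 5 at an unadjusted p under 0.05, all higher; edgeR 0, limma-voom 0, DESeq2 3 higher). Over all genes 0.397% were called higher and 0.38% lower in this comparison, and 16.5% were at an unadjusted p under 0.05. Of the 20, 11 had a positive difference, with a median of 0.25 against -0.02 over all genes. Rarres2, which encodes chemerin and is induced by retinoids, averaged 349 ± 229 in vehicle and 1710 ± 876 under the combination (SD, n = 4 each; log2 difference 2.37 ± 0.62, SE; limma adjusted p = 0.0733). Rbp4, the circulating retinol carrier, averaged 18.3 ± 10.1 and 62.9 ± 41.4 (1.66 ± 0.48; limma adjusted p = 0.0972). Both were among the 3 genes DESeq2 called, and Rarres2 also passed in limma without nintedanib responder 3. Dhrs3, a retinaldehyde reductase, differed by 0.56 ± 0.25 (limma adjusted p = 0.273).

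Genes related to Twist2 were also compared between combination and vehicle. Of 19 listed relatives, E-protein partners and mesenchymal regulators, 13 were tested and limma called 0 (2 at an unadjusted p under 0.05, both higher; edgeR, limma-voom and DESeq2 0). Their median difference was 0.18, and 9 of 13 were positive. The shares over all genes were 0.397% called higher, 0.38% called lower and 16.5% at an unadjusted p under 0.05. Twist1, the closest relative, averaged 133 ± 25.9 in vehicle and 215 ± 50.8 under the combination (SD, n = 4 each; log2 difference 0.67 ± 0.24, SE; limma adjusted p = 0.162). The differences were 0.70 ± 0.32 for Id3, an inhibitor of helix-loop-helix factors, 0.54 ± 0.31 for Prrx1, a mesenchymal homeobox factor, and -1.03 ± 0.63 for Id4 (limma adjusted p-values 0.285, 0.395 and 0.428). All of these positive differences were smaller than that of Twist2 itself, which was chosen for its large difference.

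Immediate early and stress genes gave no common direction that passed. Of 40 listed, 38 were tested and limma called 0 (9 at an unadjusted p under 0.05, 5 higher and 4 lower; edgeR, limma-voom and DESeq2 0), and the median difference was 0.17 with 24 of 38 positive. Among all genes 0.397% were called higher, 0.38% were called lower and 16.5% were at an unadjusted p under 0.05. The antiproliferative gene Btg1 differed by 0.80 ± 0.27 (SE, log2; limma adjusted p = 0.142) and the matrix protein gene Cyr61 by 0.89 ± 0.32 (0.164). Klf10, a TGF-beta-responsive factor, differed by -0.57 ± 0.22 (limma adjusted p = 0.197) and Egr1, a classical immediate early factor, by -0.62 ± 0.24 (0.2). No gene of this list reached the difference seen for Ier3, which follows largely from the choice of Ier3 for its large difference.

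**Figure D5:**
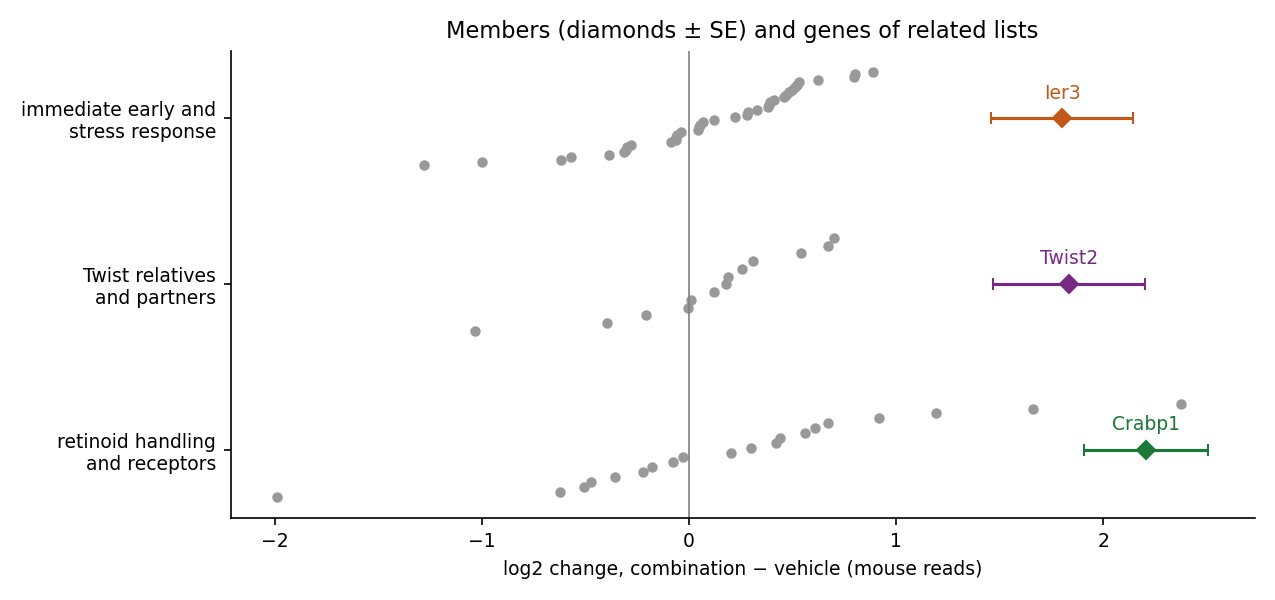
Log2 difference between combination and vehicle (x axis) for the tested genes of 3 related lists (grey points, spread vertically by rank for legibility) with the member each list belongs to (diamond with SE). List medians are 0.25, 0.18 and 0.17, and Rarres2 at 2.37 is the one grey point to the right of its member. The members were chosen for large differences, so their place to the right is no test.

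No gene of these lists passed under either drug alone. With alpelisib, limma called 0 of 20 retinoid genes (2 at an unadjusted p under 0.05), 0 of 13 Twist relatives (1) and 0 of 38 immediate early genes (7), with medians of 0.23, 0.01 and 0.25, where all genes together had a call rate of 0% and 10.6% were at an unadjusted p under 0.05. With nintedanib the counts were 0 of 20 (3), 0 of 13 (2) and 0 of 38 (6), with medians of 0.10, 0.18 and 0.02, against 0.152% of all genes called in either direction and 8.47% at an unadjusted p under 0.05. Of these comparisons, edgeR and limma-voom called 0 in each, and DESeq2 called 1 immediate early gene higher with alpelisib and 0 in the others.

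Markers of cell types that could carry the 3 genes were set beside them. Fibroblast markers had a median difference of 0.42 under the combination, 14 of 19 tested were positive and limma called 0 (2 at an unadjusted p under 0.05; edgeR and limma-voom 0, DESeq2 1). Their summed level was 41762 to 112968 normalized counts in vehicle, 30979 to 95652 under alpelisib, 46636 to 62320.4 in non-responders, 71019 to 121319 in responders and 59002 to 111155 under the combination, ranges that overlap between vehicle and combination. Dermal papilla markers, of which 10 of 17 were tested, had a median of 0.31 and 0 calls (3 at an unadjusted p under 0.05, 1 higher and 2 lower; edgeR 0, limma-voom 1, DESeq2 1, which was lower). The listed genes Corin, Alx4 and Alpl averaged under 4 normalized counts in both groups, while others of the list were well covered. Vcan averaged 239 in vehicle and 196 under the combination, and Wnt5a 140 and 202. Sox2 averaged 34.9 ± 33.1 and 3.43 ± 2.18, and Inhba 27.9 ± 24.7 and 70.8 ± 28.8 (SD, n = 4 each), so the list moved in both directions. Sox2 had 1560 human against 340 mouse reads and Inhba 1082 against 702. In all, 7 of the 17 listed genes had more human reads. Beside the counts of both lists, 0.397% of all genes were called higher, 0.38% were called lower and 16.5% were at an unadjusted p under 0.05. The part of fibroblasts and dermal papilla cells in the higher Crabp1, Twist2 and Ier3 was not tested.

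Some keratinocyte and urothelial markers were higher in the mouse reads, with 2 of 12 tested called, Krt17 (1.76 ± 0.29) and Krt14 (1.69 ± 0.37; SE, log2; limma adjusted p-values 0.0126 and 0.0368), and a median of 0.37, against 0.397% of all genes called higher. The differences were positive for 7 of the 12 and negative for 5, down to -1.79. The list had 2 calls without the 4 libraries rich in Rn45s and Lars2, and 0 without combination 4. Their summed level was 35526 to 63691 in vehicle, 91144 to 157358 under alpelisib, 68421 to 91015 in non-responders, 60564 to 92835 in responders and 79733 to 245546 under the combination. Krt14 had 3266750 human against 1016325 mouse reads in all. Dsg3 was at 0 in 15 of the 17 libraries and Cldn4 in 14, every combination library included, so these zeros were not particular to the combination. Whether these mouse reads bear on the level of Ier3, a gene also expressed by epithelia, was not tested.

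Endothelial markers had lower levels, with 10 of 10 differences negative, a median of -1.06 and 2 called, Cdh5 (-1.58 ± 0.35) and Pecam1 (-1.19 ± 0.27; SE, log2; limma adjusted p-values 0.0415 and 0.0433), against 0.38% of all genes called lower. At an unadjusted p under 0.05 there were 8 of 10, all lower, against 16.5% of all genes. Of the 10, edgeR called 1, limma-voom 2 and DESeq2 5. The limma calls were fragile, with 0 without the 4 libraries and 0 without any of alpelisib 2, 3 and 4, combination 1, 3 and 4, or vehicle 1, 3 and 4. The summed endothelial level was 2767 to 5174 in vehicle, 2115 to 3516 under alpelisib, 1328 to 1993 in non-responders, 1350.0 to 2612 in responders and 1563 to 2064 under the combination. Responder and combination libraries, where the 3 genes averaged highest, had low endothelial sums, and so did non-responders, where the 3 genes were nearest to vehicle. The part of the endothelial levels in these values was not tested.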

How the data were processed

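Poly(A) RNA libraries (TruSeq v2, 75-bp paired-end reads, NextSeq500, per the labels' protocols) were processed with Bowtie, TopHat and DESeq2 on hg19 and mm10, per the submitters' processing notes; the split of reads between species and the strand setting are not given in the sources used here. As deposited, the signal values are normalized counts. Dividing each column by its smallest step gave whole reads for 100% of values within 0.001 of a whole number, so reads and depth could be recovered. The 3 genes and the gene lists were chosen with earlier results of these data known.

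limma 3.58.1 (R 4.3.3) with an intensity trend was fitted to log2(value + 1) over 5 group means, for genes with a mean of at least 10 (11831 mouse and 14533 human), with Benjamini-Hochberg adjustment at 0.05. Other genes named are the up to 4 of each list with the smallest p under the combination, the 5 most like each member, and neighbours in rank, of which some are not reported here; cell type marker genes were named after their values were seen. Correlations used 100000 permutations. Alternatives were edgeR 4.0.16, limma-voom and DESeq2 1.42.0 on the recovered reads, TMM scaling, pseudocounts of 0.5 and 5, no filter, a mean of at least 50, a replicate block, omission of each library and omission of the 4 libraries rich in Rn45s and Lars2. The fit was tested on simulated data, with 100 genes changed 2-fold and 100 changed 4-fold under the combination, all with a mean of at least 50. In the mouse simulation limma called 27 and 96 of these, with 6 false calls, and in the human simulation 38 and 97, with 8. A list with 0 calls may therefore still hold differences of about 2-fold. The 22 pairs of libraries within groups differed by more than sampling noise (chi-square per gene of at least 14.8). The series text and sample titles disagree on the numbers of responders and non-responders, and the titles were followed.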

Additional observations from a re-analysis of the deposited data

Results flagged for a closer look

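In 4 of 24 groups of values, the highest library stood apart from the rest by more than Dixon's 95% limit, where chance gives about 1 in 20. Alpelisib 1 stood apart for mouse Crabp1, at 1004 normalized counts against 684 to 736, with a gap of 0.835 of the group's range (limit 0.829 for 4 libraries). Nintedanib responder 1 stood apart for mouse Crabp1 among the 5 nintedanib libraries, at 1939 against 448 to 809 (gap 0.757, limit 0.71). The same library stood apart for human IER3 (gap 0.717), at 6875 normalized counts. Combination 4 stood apart for mouse Twist2, at 147 against 128 to 129.7 (gap 0.906). The combination libraries held 104 to 139 Twist2 reads. Combination 4 had 118, with a 95% interval of 97.7 to 141 reads from counting error (Poisson), which is wide beside this gap.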

How the results depend on the processing

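The higher levels of the combination against vehicle kept their direction in all 27 alternatives for each mouse gene. The log2 difference ran from 2.01 to 2.27 for Crabp1, from 1.57 to 2.08 for Twist2 and from 1.57 to 1.94 for Ier3. Without the 4 libraries rich in Rn45s and Lars2 it was 2.01, 2.04 and 1.60. The labels do not say whether replicate numbers pair the libraries. Among vehicle, alpelisib and combination libraries, 2 of 12 same-numbered mouse pairs correlated above 0.1 with group means removed, against 14 of 36 others. So small a count cannot exclude pairing. With the replicate block, alpelisib minus nintedanib for Ier3 was 0.0275, of opposite sign, and the mouse genes called under the combination fell from 47 higher and 45 lower to 23 and 23. The same Ier3 difference was 0.0466 without the 4 libraries. For Crabp1 it was -0.0232 with DESeq2 and -0.0297 with edgeR. Leaving out single libraries moved alpelisib minus nintedanib from -0.0838 to 0.444 for Crabp1, from -0.114 to 0.406 for Twist2 and from -0.292 to 0.289 for Ier3. Retinoid genes called higher numbered 3 with DESeq2 and 0 to 1 on leaving out single libraries. The r of Ier3 with human IER3 was 0.723 with group means removed and did not pass, and that of Twist2 with Ier3 ran from -0.192 to 0.654 over single omissions. The causes were not tested.

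Over all mouse genes, higher and lower calls under the combination were 295 and 186 with DESeq2, 26 and 21 with no filter, 34 and 26 at a mean of at least 50, 18 and 4 without the 4 libraries, and from 1 to 71 and from 4 to 60 on leaving out single libraries, the lowest without combination 4. Higher calls were also 25, 19 and 9 without vehicle 1, 2 and 4, 16 and 6 without combination 2 and 3, and 71 without nintedanib responder 1. The 4 genes called higher with alpelisib than nintedanib became 39 with DESeq2, 11 with edgeR and 0 to 31 over single omissions, and the 46 human genes called higher under the combination became 360 with DESeq2, 27 with the replicate block and 0 to 84 over single omissions. The lists of most like genes shared 2, 1 and 3 of 5 with Spearman's rank correlation. Depth limits mouse Twist2, human CRABP1 and human TWIST2, which had few reads per library.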

Other observations

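Pericyte and macrophage markers were also compared between combination and vehicle, and none passed in limma. Over all genes 0.397% were called higher and 0.38% lower, and 16.5% were at an unadjusted p under 0.05. Of 10 pericyte markers 0 were called (4 at an unadjusted p under 0.05, 1 higher and 3 lower; edgeR and limma-voom 0, DESeq2 1), with a median log2 difference of -0.59. Mcam, an adhesion molecule of vessel walls, differed by -1.39 ± 0.32 (SE; limma adjusted p = 0.0521), and Acta2, smooth muscle actin, by 0.98 ± 0.36 (limma adjusted p = 0.181). Of 10 macrophage markers 0 were called (4 at an unadjusted p under 0.05, 3 higher and 1 lower; edgeR and limma-voom 0, DESeq2 2, of which 1 higher and 1 lower), with a median of 0.28. Emr1, the gene of the F4/80 antigen, differed by -0.63 ± 0.19 (SE; limma adjusted p = 0.115) and Cd68, a lysosomal marker, by 0.75 ± 0.24 (limma adjusted p = 0.12). C1qa, a complement component made by macrophages, averaged 4291 ± 1622 normalized counts in vehicle and 7162 ± 2143 under the combination (SD, 4 libraries each), a log2 difference of 0.79 ± 0.35 (SE; limma adjusted p = 0.259).

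Nintedanib responder 1, the highest library for mouse Crabp1, Twist2 and Ier3, also had the highest summed neutrophil markers of the 17 libraries, at 2468 normalized counts. That sum includes S100a8 and S100a9, which had 533488 and 1.29e+06 human against 4599 and 6927 mouse reads. Of the 5 neutrophil genes with a human name, 3 had more mouse reads. The part of human reads in this sum was not tested. The same library ranked 3 in summed macrophage markers and 16 in summed endothelial markers, and ranked 8 in summed fibroblast markers, at 72138.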
